A study of Mus musculus with 10 samples.

Results

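The genes described here are the mouse cytochromes P450, UDP-glucuronosyltransferases (UGT) and cytosolic sulfotransferases (SULT). They were chosen by symbol, as names made of Cyp, digits, a letter and digits, or names starting with Ugt1a, Ugt2a, Ugt2b, Ugt3a or Sult and a digit. A closing letter that marks a gene copy was allowed (Cyp4a12a). Pseudogenes, Cyp24a1 and Cyp27b1 were left out. The rule found 138 of 55359 genes in the table, of which 96 were P450, 21 UGT and 21 SULT genes. Kidneys of male mice were compared between 5 libraries labelled Sham surgery and 5 labelled Kidney IRI surgery, in which 30 min of ischaemia preceded 24 h of reperfusion (IRI, ischaemia-reperfusion injury). Strain, genotype, age and the time from sham surgery to sampling were not given in the sources used here. No label says that each library came from a separate mouse, so p-values reflect only how these libraries vary, which may be technical. Total counts per library ranged from 13147899 to 18603272.

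Cytochromes P450 are haem enzymes that place oxygen on drugs, fatty acids, steroids and bile acid precursors, using electrons passed on by P450 oxidoreductase and cytochrome b5. UGTs then join glucuronic acid, and SULTs a sulfate group, to the products or to hormones directly, which makes them water-soluble for export into urine or bile. In the kidney most of these enzymes are made in the proximal tubule, where they handle foreign compounds and form lipid mediators that act on vessels and salt transport.

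The summed messenger RNA of these enzymes was lower after IRI, while single genes differed in direction. The summed level, in FPKM (counts scaled to exonic length and to the library's total count), was 5758, 5945, 5095, 5248 and 4895 in Sham 1 to 5 and 2024, 1453, 1483, 800 and 774 in IRI 1 to 5. Every IRI library was below every sham library, and the IRI mean was 24.2% of the sham mean. The 3 superfamilies were not equal in this. As mean ± SD of 5 libraries, sham and IRI sums were 3803 ± 315 and 847 ± 403 FPKM for P450, 1233 ± 156 and 199 ± 111 for UGT, and 351 ± 33.4 and 261 ± 58.9 for SULT. The IRI means were 22.3%, 16.1% and 74.3% of sham, and the SULT sums overlapped between the groups. FPKM is scaled to library totals, whereas the calls below used edgeR's TMM scaling factors. These were 0.89 to 0.94 in sham and 1.00 to 1.14 in IRI, which lowers IRI values relative to sham. Shares of sham and overlaps given in FPKM, such as that of SULT, therefore depend on the scaling. In bulk tissue, fewer cells of a type and less RNA per cell cannot be told apart, and this holds for every value below.

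**Figure D1:**
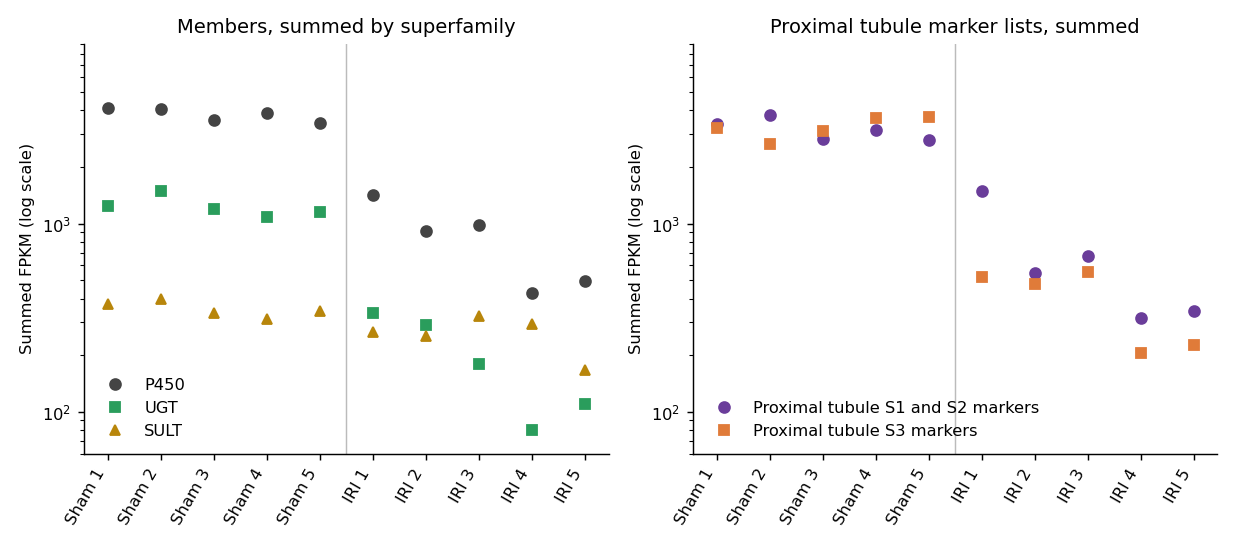
Summed FPKM (log scale) of the P450, UGT and SULT genes (left) and of 2 lists of proximal tubule marker genes (right) in each of the 10 libraries, 1 point per library and set. P450 and UGT sums of all IRI libraries lie below all sham libraries, SULT sums overlap, and IRI 1 is the highest IRI library in P450, UGT and the list for segments S1 and S2.

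Of the 138 genes, 50 passed the filter on low values (at least 1 FPKM in at least 5 libraries). By edgeR's quasi-likelihood test with Benjamini-Hochberg adjustment over all 13324 genes tested (called at an adjusted p under 0.05), 33 of the 50 were lower in IRI, 10 were higher and 7 were not called. Over all genes tested 32.4% were called lower and 34.5% higher, so among the 50 the lower share was above the background and the higher share below it. The median log2 fold change, IRI over sham, was -1.26 for the 50 and 0.05 for all genes tested. When libraries were scaled to their total counts alone, log2 fold changes rose, with a median shift of 0.25, and so did the share of higher among all calls from 51.6% to 66.9%. The 50 then gave 30 lower and 11 higher, beside 3120 and 6307 of all genes tested. FPKM values of the groups did not overlap for 33 of the 50, against 55.3% of all genes tested. Of the 50, 3 passed the filter through IRI libraries alone (Cyp3a13, Sult1e1 and Sult2b1) and 2 through sham libraries alone (Cyp2f2 and Cyp2j7). The filter itself required the groups of these genes to be apart, so their place among the genes without overlap was set in advance. Without Sham 2 and IRI 1, which stood apart from their groups in several of these genes, 33 were called lower and 9 higher. Over all genes tested it was then 4142 and 4264.

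By superfamily, 23 of 36 tested P450 genes were lower and 7 higher (median log2 fold change -1.26), and 7 of 8 UGT genes were lower and none higher (median -2.70). With no filter, 17 UGT genes had values, of which 9 were lower and 3 higher, with a median of -0.89. Over all genes in that fit 17.9% were lower and 19.3% higher. SULT genes divided into 3 lower and 3 higher of 6, but Sult1e1 and Sult2b1 passed the filter through IRI libraries alone. When an IRI library was left out and the filter applied again, 0 or 1 SULT gene was called higher. That drop was set in advance, since these 2 genes could then no longer reach 1 FPKM in 5 libraries. With the tested genes kept, leaving out 1 IRI library gave 2 or 3 SULT genes higher. The SULT median of -0.09 turned positive when library totals were used (0.16) and without IRI 5 (0.05). No test compared the families with each other.

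**Figure D2:**
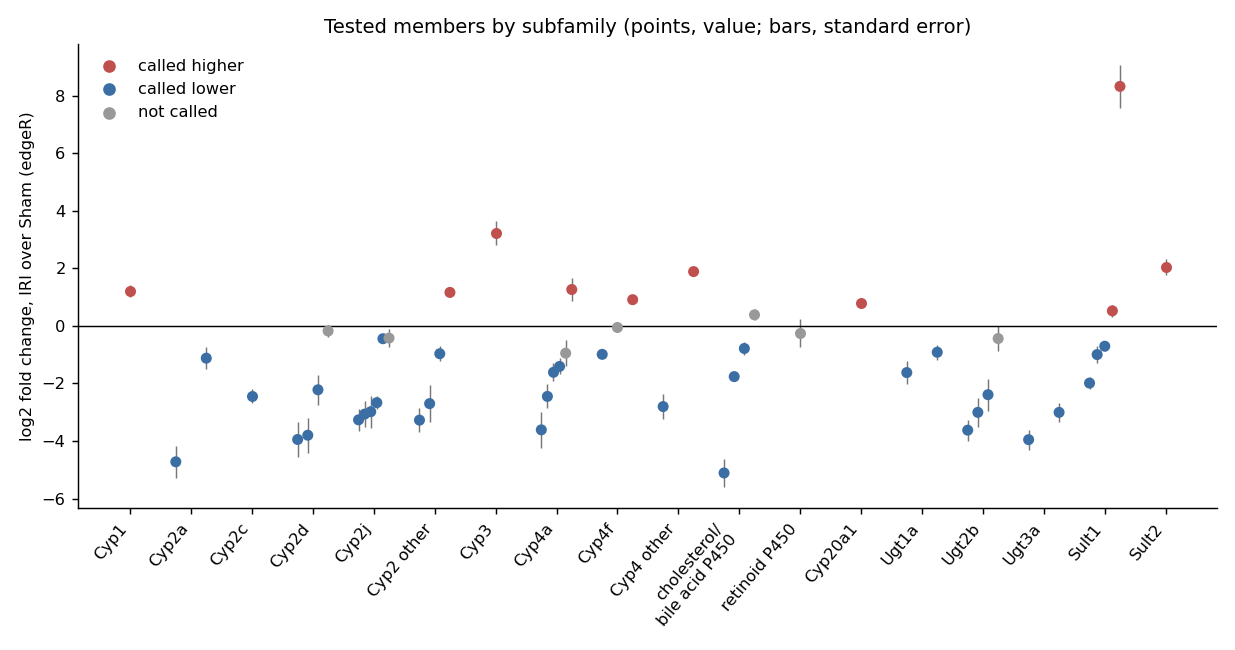
Log2 fold change, IRI over sham, of the 50 tested genes by subfamily (points, edgeR estimate; bars, standard error; colour, call). Most subfamilies lie below 0, from -5.11 for Cyp7b1, while Sult1e1 stands at 8.32.

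A few genes made up most of the transcript pool. In sham kidneys Cyp4b1, Cyp2e1 and Cyp2j5 together held 51.0% of the summed FPKM of the 138 genes, and the same genes held 34.0% in IRI. Sult1d1, sixth in sham, had the highest mean in IRI, at 5.61% of the sum in sham and 16.8% in IRI. Its IRI mean was close to that of Cyp4b1 (220 ± 53.3 and 218 ± 134 FPKM, SD). Cyp4b1 was above Sult1d1 in IRI 1 (422 and 221 FPKM) and IRI 2 (244 and 205), and below it in IRI 3, IRI 4 and IRI 5.

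**Figure D3:**
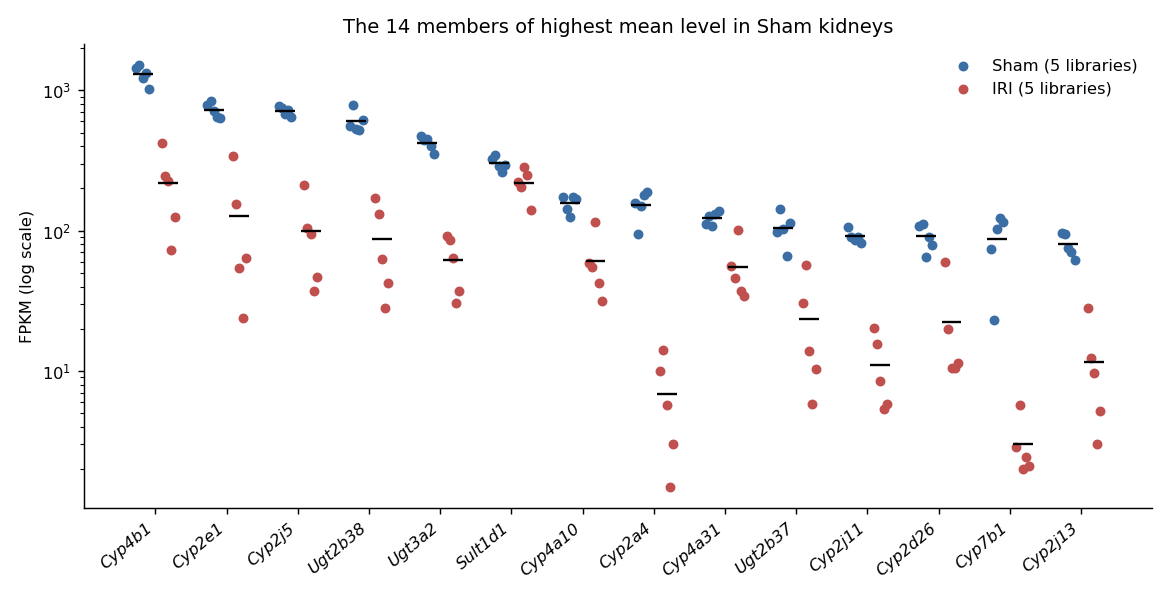
FPKM (log scale) of the 14 genes with the highest sham mean, 1 point per library, with the group mean as a black line. In 13 of the 14 no IRI library reached the lowest sham library; Sult1d1 is the exception.

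P450 families 1 to 3 hold the main enzymes of drug and toxicant oxidation. Of 19 tested, 14 were lower and 3 higher, with a median log2 fold change of -2.43. Cyp2e1 oxidises ethanol, acetone and small solvents. Its FPKM was 785, 839, 713, 651 and 638 in Sham 1 to 5 and 341, 156, 54.5, 23.7 and 64.2 in IRI 1 to 5. The groups did not overlap, and IRI 1 kept the highest level of the injured kidneys. The log2 fold change was -2.70 ± 0.64 (SE; edgeR adjusted p = 0.0034), and it was -3.56 without IRI 1.

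The Cyp2j subfamily turns arachidonic acid into epoxides that widen vessels. Of its 6 tested genes 5 were lower and Cyp2j9 was not called. Cyp2j5, an abundant epoxygenase of the proximal tubule, lies at chr4:96517010-96552391 (GRCm39, minus strand). Its FPKM was 776, 744, 679, 730 and 644 in sham and 212, 104, 94.1, 37.4 and 46.6 in IRI. IRI 1 was the highest injured library and none reached the sham range; the log2 fold change was -3.06 ± 0.46 (edgeR adjusted p = 0.00016). Cyp2j11 was at 107, 89.9, 86.1, 90.2 and 82.3 FPKM in sham and 20.3, 15.5, 8.53, 5.39 and 5.79 in IRI. It fell by 3.26 on the log2 scale (SE 0.39, edgeR adjusted p = 2.9e-05), again without overlap. Cyp2j13 and Cyp2j7 changed by -2.98 and -2.67, and Cyp2j13 by -3.68 without IRI 1. Cyp2j6 changed least of the called genes, at -0.44, with overlapping groups, and was not called with library totals. The 250 bases upstream of the Cyp2j5 start are shown because this gene is the most abundant of the subfamily; capitals mark the letters AGGTCA, the core of nuclear receptor elements, at chr4:96664120-96664369 (RefSeq, GRCm38.p6, minus strand).
Cyp2j5: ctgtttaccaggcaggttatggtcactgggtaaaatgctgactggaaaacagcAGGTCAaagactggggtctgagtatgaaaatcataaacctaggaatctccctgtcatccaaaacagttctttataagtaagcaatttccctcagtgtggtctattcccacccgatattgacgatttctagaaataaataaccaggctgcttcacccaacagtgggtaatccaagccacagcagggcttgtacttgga

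The Cyp2a subfamily hydroxylates steroids and coumarin, and the estimated changes of its 2 tested genes differed. Cyp2a4, a steroid hydroxylase at chr7:26006594-26014513 (GRCm39, plus strand), had FPKM of 157, 94.3, 149, 180 and 188 in sham and 9.94, 14.2, 5.75, 1.49 and 3.04 in IRI. Sham 2 was the lowest sham library and still far above IRI 2, the highest of the injured kidneys. The log2 fold change was -4.72 ± 0.56 (edgeR adjusted p = 2.9e-05). Cyp2a5, the coumarin hydroxylase at chr7:26534730-26542973 (GRCm39, plus strand), had FPKM of 44.5, 25.7, 23.1, 29.8 and 21.9 in sham and 14.8, 16.6, 30.1, 5.86 and 11.8 in IRI. Its groups overlapped, since IRI 3 exceeded 4 of the 5 sham libraries. The log2 fold change was -1.12 ± 0.38 (edgeR adjusted p = 0.021), and the call was lost without Sham 1 (adjusted p = 0.057), without IRI 5 (0.051), with library totals (0.056) or with no filter (0.074). Whether the difference between the pair is larger than error was not tested. Of the 150-base stretches of their transcripts, 4.22% for Cyp2a4 and 4.56% for Cyp2a5 also occurred in another gene. Counts in sham and IRI were 20898 and 911 for Cyp2a4 and 4715 and 2645 for Cyp2a5. A small part of the sham Cyp2a4 reads could therefore weigh on Cyp2a5. How shared reads were treated is not known, and their part in the fold changes was not tested. The windows of 250 bases upstream of the 2 starts are shown because they are nearly the same while the estimated fold changes are not. The part of these windows in the fold changes was not tested. The 2 windows shared 97.6% of 251 aligned positions, with 4 mismatches and 2 gap positions. Capitals mark the bases that differ from, or have no partner in, the other window (RefSeq, GRCm38.p6, plus strand, Cyp2a4 at chr7:26306942-26307191 and Cyp2a5 at chr7:26835089-26835338).
Cyp2a4: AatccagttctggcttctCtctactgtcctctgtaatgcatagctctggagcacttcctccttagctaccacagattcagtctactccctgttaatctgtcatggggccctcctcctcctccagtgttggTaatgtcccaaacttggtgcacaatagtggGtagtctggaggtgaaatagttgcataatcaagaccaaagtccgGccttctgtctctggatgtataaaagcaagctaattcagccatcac
Cyp2a5: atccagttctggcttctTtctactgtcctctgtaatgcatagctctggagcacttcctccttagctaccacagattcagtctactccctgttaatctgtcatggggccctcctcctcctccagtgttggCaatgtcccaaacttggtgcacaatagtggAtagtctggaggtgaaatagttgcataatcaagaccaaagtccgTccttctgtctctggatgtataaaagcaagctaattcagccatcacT

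The Cyp2d genes, relatives of the human debrisoquine hydroxylase, gave 3 lower of 4. Cyp2d9, a testosterone hydroxylase of male mice, had FPKM of 45.9, 25.1, 34.2, 40.2 and 33.0 in sham and 5.02, 7.15, 1.70, 0.64 and 0.76 in IRI. Cyp2d12 had 20.3, 15.1, 11.6, 16.8 and 13.9 in sham and 2.41, 2.39, 0.67, 0.21 and 0.32 in IRI. Both were without overlap, and in both IRI 4 and IRI 5 were far under IRI 1 and IRI 2. Their log2 fold changes were -3.80 ± 0.61 and -3.94 ± 0.59 (edgeR adjusted p = 0.00027 and 0.00016). Cyp2d26 changed by -2.22, or -3.09 without IRI 1, and Cyp2d22 was not called (-0.18). Cyp2c23, the main arachidonic acid epoxygenase of the mouse kidney in this subfamily, was the only Cyp2c gene of 15 to pass the filter and fell by 2.43 on the log2 scale. Cyp2f2, Cyp2u1 and Cyp2e1 were the lower genes of the remaining Cyp2 subfamilies.

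Family 4 hydroxylates the far end of fatty acids, and the product made from arachidonic acid narrows vessels. Of 11 tested genes 6 were lower, 3 higher and 2 not called. Cyp4b1, which also activates furans and aromatic amines, was the most abundant of the 138 genes, at 1434, 1513, 1226, 1336 and 1023 FPKM in sham and 422, 244, 225, 73.3 and 124 in IRI. IRI 1 held the most and IRI 4 the least, all under the sham range, and the log2 fold change was -2.80 ± 0.43 (edgeR adjusted p = 0.00018).

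The Cyp4a genes lie side by side on chromosome 4 and did not change alike: 4 were lower, Cyp4a14 was higher and Cyp4a12b was not called. Cyp4a12a, the main maker of the vessel-narrowing product in male mice, had FPKM of 39.8, 35.8, 30.6, 33.8 and 27.5 in sham and 8.78, 1.76, 3.65, 0.51 and 1.03 in IRI. Without overlap, it fell by 3.61 on the log2 scale (SE 0.63, edgeR adjusted p = 0.00046); without IRI 1 the log2 fold change was -4.54. Its copy Cyp4a12b, with which it shares 25.6% of its 150-base stretches, had 7.05, 7.16, 3.87, 6.90 and 5.28 in sham and 3.13, 1.94, 9.31, 2.16 and 2.03 in IRI. IRI 3 was above all sham libraries and the other 4 IRI libraries were below them; the log2 fold change of -0.95 was not called (edgeR adjusted p = 0.081) and became -1.62 and called without IRI 3 (0.00013).

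Cyp4a10, a fatty acid hydroxylase induced through PPAR alpha, had FPKM of 174, 142, 125, 175 and 167 in sham and 59.0, 55.0, 115, 42.5 and 31.6 in IRI. Cyp4a31 had 112, 127, 107, 131 and 138 in sham and 56.1, 46.4, 101, 37.0 and 34.3 in IRI. IRI 3 came close to the lowest sham library in both, without reaching it. The log2 fold changes were -1.61 ± 0.31 and -1.41 ± 0.28 (edgeR adjusted p = 0.00084 and 0.00094). Cyp4a14, also a target of PPAR alpha, went the other way, with 36.7, 37.2, 18.1, 26.4 and 32.9 in sham and 79.4, 78.4, 177, 59.7 and 36.1 in IRI. IRI 3 was again the highest injured library, and IRI 5 lay inside the sham range; the log2 fold change was 1.26 ± 0.39 (edgeR adjusted p = 0.014). IRI 3 thus had the highest level of all 5 IRI libraries for Cyp4a10, Cyp4a31, Cyp4a12b, Cyp4a32 and Cyp4a14, but not for Cyp4a12a. The sum over Cyp4a genes was 354 ± 37.3 FPKM for sham and 209.7 ± 118 for IRI (SD, n = 5).

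**Figure D4:**
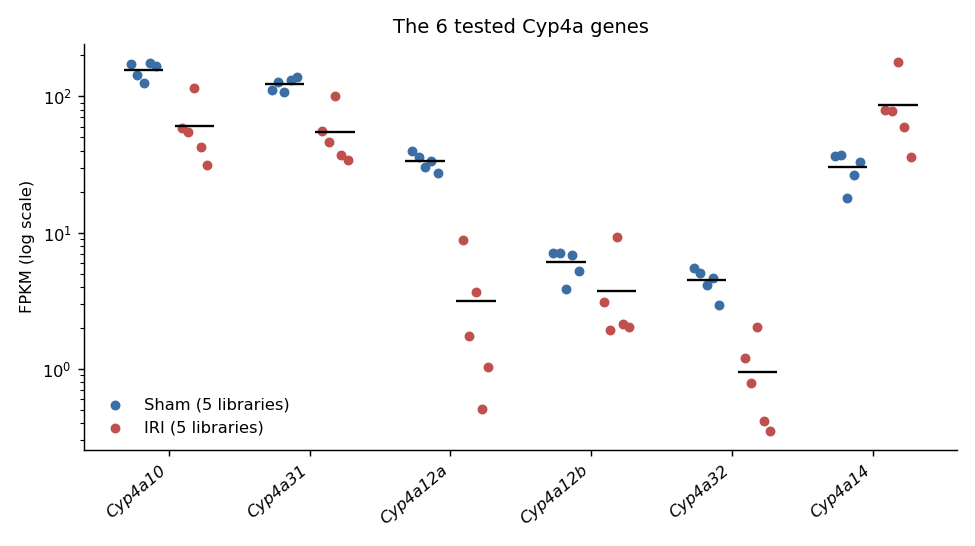
FPKM (log scale) of the 6 tested Cyp4a genes, 1 point per library, with the group mean as a black line. Cyp4a14 is the gene whose IRI mean (86.2) lies above its sham mean (30.2), and IRI 3 is the highest injured library in 5 of the 6.

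In the rest of family 4, Cyp4v3, a fatty acid hydroxylase whose human counterpart is mutated in a crystalline eye disease, rose. Its FPKM was 1.47, 1.31, 1.60, 1.49 and 1.23 in sham and 5.04, 5.91, 6.18, 6.90 and 7.35 in IRI. The groups were well apart with little spread in either, and the log2 fold change was 1.89 ± 0.12 (edgeR adjusted p = 1.2e-07). The Cyp4f genes, which inactivate leukotrienes and related lipids, gave 1 higher, 1 lower and 1 not called of 3 tested. Cyp4f16 had 2.17, 2.78, 3.08, 2.81 and 2.95 in sham and 4.85, 5.63, 6.10, 6.50 and 7.96 in IRI, a log2 fold change of 0.91 ± 0.14 (edgeR adjusted p = 7.8e-05) without overlap. Cyp4f13 changed by -0.99 and Cyp4f17 by -0.06, which was not called. Summed Cyp4f FPKM was 98.8% of sham in IRI.

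Among the P450 genes for sterols, steroids and retinoids and Cyp20a1, 6 of 16 passed the filter, and 3 of them were lower and 1 higher. Cyp7b1, which hydroxylates oxysterols and neurosteroids, changed most of all lowered genes. It lies at chr3:18126114-18297502 (GRCm39, minus strand) and had FPKM of 74.5, 23.0, 103, 123 and 115 in sham and 2.89, 5.76, 2.00, 2.44 and 2.11 in IRI. Sham 2 was well under the other sham libraries and IRI 2 above the other IRI libraries, yet the groups were apart; the log2 fold change was -5.11 ± 0.50 (edgeR adjusted p = 7e-06). Cyp27a1, the mitochondrial sterol hydroxylase of bile acid synthesis, had 24.2, 27.1, 23.5, 27.8 and 25.6 in sham and 9.76, 8.26, 11.8, 8.53 and 6.45 in IRI. It fell by 1.76 on the log2 scale (SE 0.15, edgeR adjusted p = 1.2e-06), without overlap and with little spread.

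Cyp39a1, another oxysterol hydroxylase, had 2.82, 2.10, 3.81, 2.70 and 2.72 in sham and 3.81, 3.36, 3.69, 6.25 and 4.88 in IRI. Sham 3 lay within the IRI range; the log2 fold change of 0.38 ± 0.19 was not called (edgeR adjusted p = 0.089), and was called higher without Sham 3 (0.030), without IRI 2 (0.047) and with library totals. Cyp20a1, a P450 with no settled substrate, had 7.77, 7.62, 8.18, 5.70 and 7.12 in sham and 12.5, 13.3, 14.9, 16.0 and 19.6 in IRI. It rose by 0.81 ± 0.12 on the log2 scale (edgeR adjusted p = 0.0001) and its groups were apart. Cyp46a1, the cholesterol hydroxylase best known from brain, was near the filter at 1.06 ± 0.19 FPKM in sham and changed by -0.78; it was not called with library totals. Cyp26b1, which breaks down retinoic acid, was not called and ranged from 0.53 to 4.59 in sham.

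Of the 8 tested UGT genes, which belong to subfamilies 1a, 2b and 3a, 7 were called lower. With no filter, Ugt1a2, Ugt1a9 and Ugt2b35 were called higher, at low counts. Ugt2b38 was the most abundant, with FPKM of 559, 780, 530, 519 and 613 in sham and 172, 131, 62.6, 28.2 and 42.1 in IRI. IRI 4 and IRI 5 were the lowest, no IRI library reached the sham range, and the log2 fold change was -3.003 ± 0.49 (edgeR adjusted p = 0.00029). Ugt2b5 shares 19.5% of its 150-base stretches with Ugt2b38, so the authors' counting could split or lose reads between them. Its FPKM was 4.38, 6.34, 3.71, 4.44 and 6.16 in sham and 0.40, 0.29, 1.09, 0.35 and 0.26 in IRI. IRI 3 stood above the other 4 injured libraries, all under the sham range; the log2 fold change was -3.62 ± 0.37 (edgeR adjusted p = 3.6e-06). Ugt2b37 had 97.7, 142, 102, 66.2 and 114 in sham and 30.7, 56.9, 13.97, 5.85 and 10.4 in IRI. It fell by 2.39 on the log2 scale (SE 0.56, edgeR adjusted p = 0.003); the log2 fold change was -2.98 without IRI 2, the library closest to sham. Ugt2b34 was not called, at 5.17 ± 1.54 FPKM for sham and 4.51 ± 2.81 for IRI (SD, n = 5).

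The Ugt3a enzymes use sugar donors other than glucuronic acid, and both genes, neighbours on chromosome 15, fell. Ugt3a2 had FPKM of 473, 445, 446, 401 and 354 in sham and 91.8, 86.2, 64.3, 30.5 and 37.2 in IRI. Ugt3a1 had 53.3, 52.5, 63.2, 54.6 and 33.3 in sham and 5.99, 5.58, 3.74, 2.13 and 2.14 in IRI. In both, IRI 1 was the highest and IRI 4 the lowest injured library, with no overlap. Their log2 fold changes were -3.003 ± 0.32 and -3.95 ± 0.35 (edgeR adjusted p = 9.5e-06 and 3.6e-06). The Ugt1a genes share their last exons and differ in the first, and 49.9% of the 150-base stretches of Ugt1a7c and 49.1% of those of Ugt1a6a also occur in another gene. With that uncertainty, Ugt1a7c changed by -1.62 and Ugt1a6a by -0.91, both with overlapping groups. The 250 bases upstream of the start of Ugt2b38 (RefSeq, GRCm38.p6, chr5:87424204-87424453, minus strand) are shown because it is the most abundant UGT gene; capitals mark AGGTCA.
Ugt2b38: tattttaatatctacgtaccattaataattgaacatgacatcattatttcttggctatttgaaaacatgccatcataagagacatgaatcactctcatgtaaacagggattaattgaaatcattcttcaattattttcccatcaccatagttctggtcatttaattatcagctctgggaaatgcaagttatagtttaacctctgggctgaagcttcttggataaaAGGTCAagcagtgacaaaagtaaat

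SULT genes held the largest rise among the 50. Sult1e1, the oestrogen sulfotransferase, lies at chr5:87723828-87739453 (GRCm39, minus strand). Its FPKM was 0 in Sham 1, 2, 4 and 5 and 0.05 in Sham 3, against 11.4, 6.43, 4.65, 3.78 and 3.16 in IRI 1 to 5. The sham libraries held 1 count in all and the IRI libraries 581, a ratio of 482 after scaling (95% interval 86.1 to 19060, exact, counting error only). Without Sham 3, which held that count, sham held no count. With the sham group as a whole set to 3 counts, IRI was 126.6-fold higher, which is an assumed floor and not a lower limit. Without Sham 3, the 95% exact interval on the counts as they are starts at 102.7. It was called higher by edgeR (adjusted p = 1.4e-06). IRI 1, the highest injured library in 14 of the 33 lowered genes, also had the most Sult1e1. The 250 bases upstream of its start (RefSeq, GRCm38.p6, chr5:87591612-87591861, minus strand) are shown because this gene rose most; capitals mark TGACCT, the reverse complement of AGGTCA.
Sult1e1: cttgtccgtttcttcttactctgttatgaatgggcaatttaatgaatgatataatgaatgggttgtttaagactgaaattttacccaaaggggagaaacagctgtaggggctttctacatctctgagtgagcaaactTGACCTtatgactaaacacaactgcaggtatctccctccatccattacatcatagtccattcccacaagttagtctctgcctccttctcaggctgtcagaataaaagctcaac

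Sult1d1, a sulfotransferase for catecholamines and eicosanoids that neighbours Sult1e1, had FPKM of 322, 347, 288, 261 and 295 in sham and 221, 205, 282, 251 and 141 in IRI. IRI 3 lay inside the sham range, and the log2 fold change was -0.71 ± 0.18 (edgeR adjusted p = 0.0033). Sult1c2, a sulfotransferase for small phenols, had 36.6, 35.4, 30.0, 35.4 and 31.8 in sham and 13.5, 7.70, 14.02, 7.85 and 7.27 in IRI. It fell by 1.99 on the log2 scale (SE 0.22, edgeR adjusted p = 9.5e-06) without overlap. Sult2b1, the cholesterol sulfotransferase, had 0.27, 0.20, 0.49, 0.36 and 0.53 in sham and 1.79, 1.87, 1.55, 2.64 and 1.34 in IRI. All IRI libraries were above all sham libraries, which its passage of the filter through IRI libraries alone required. The log2 fold change was 2.05 ± 0.28 (edgeR adjusted p = 4e-05).

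Sult1a1, the phenol sulfotransferase, had 11.4, 10.6, 11.7, 13.4 and 14.2 in sham and 16.8, 30.9, 19.7, 24.7 and 12.9 in IRI. IRI 5 lay inside the sham range and IRI 2 and IRI 4 were highest. Its log2 fold change was 0.52 ± 0.20 (edgeR adjusted p = 0.034), and the call was lost without any of Sham 1, Sham 2, Sham 3, IRI 2 or IRI 4 (adjusted p from 0.059 to 0.095). Sult1b1, a thyroid hormone sulfotransferase, changed by -0.99 at 2.00 ± 0.65 FPKM in sham, with overlapping groups.

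The other higher P450 genes belong to families 1 to 3. Cyp3a13, the only gene of 9 in family 3 to pass the filter and a relative of the main human drug-oxidising enzyme, had 0.32, 0.27, 0.31, 0.13 and 0.04 in sham and 3.47, 1.83, 1.82, 1.69 and 3.09 in IRI. It rose by 3.21 ± 0.41 on the log2 scale (edgeR adjusted p = 2.5e-05) from a sham level near 0. Cyp1b1, which oxidises oestrogens and polycyclic hydrocarbons and is a target of the aryl hydrocarbon receptor, had 5.57, 4.69, 4.58, 4.85 and 4.23 in sham and 6.13, 14.7, 16.9, 16.8 and 11.6 in IRI. IRI 1 was just above the highest sham library and the other 4 were well above it; the log2 fold change was 1.20 ± 0.21 (edgeR adjusted p = 0.0004). Cyp2s1, a P450 of epithelia, had 3.33, 2.87, 2.73, 3.16 and 3.04 in sham and 5.07, 7.19, 8.69, 8.10 and 11.6 in IRI, again with IRI 1 lowest of the injured kidneys. Its log2 fold change was 1.16 ± 0.16 (edgeR adjusted p = 4.3e-05). Cyp1a1, the best-known target of the same receptor, was below the filter at 0.392 ± 0.210 FPKM in sham and 0.226 ± 0.109 in IRI and was not called.

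**Figure D5:**
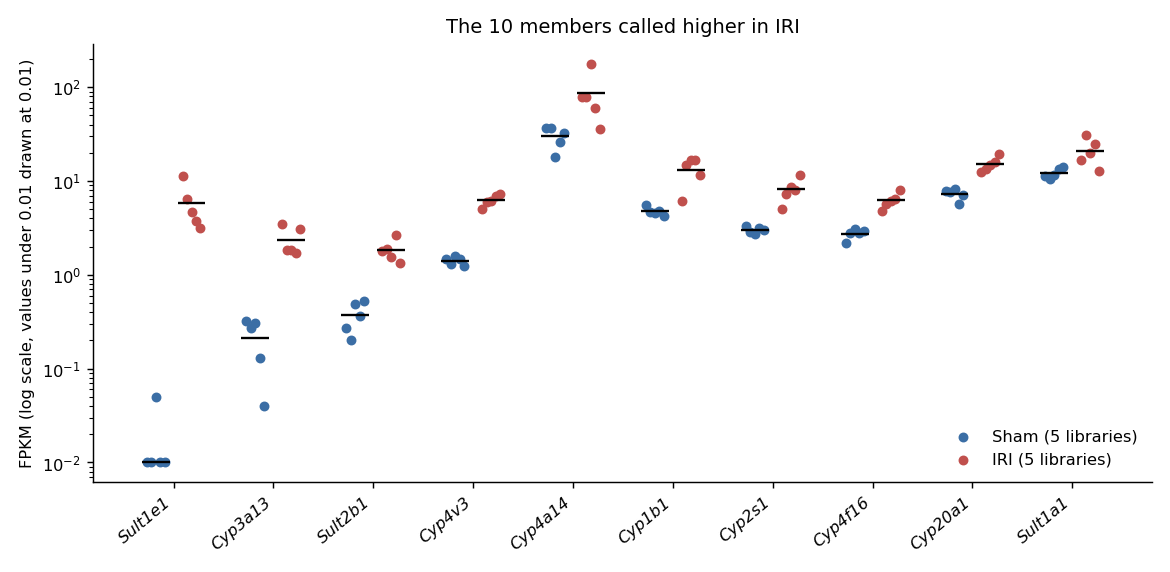
FPKM (log scale, values under 0.01 drawn at 0.01) of the 10 genes called higher in IRI, 1 point per library, with the group mean as a black line. The groups are apart in 8 of the 10 and overlap in Cyp4a14 and Sult1a1. Cyp3a13, Sult1e1 and Sult2b1 passed the filter through IRI libraries alone, so the filter itself required their groups to be apart.

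Among the genes below the filter, 37 had no count in any library. They included Cyp1a2, Cyp7a1, Cyp19a1, 9 of 15 Cyp2c genes, 8 of 9 Sult2 genes and both Sult3 genes, which are mainly known from liver, gonads or gut. The other 51 were given values in a fit with no filter, in which 19.3% of 30454 genes were higher and 17.9% lower. Of the 51, 5 were called higher and 6 lower. Cyp17a1, the steroid hydroxylase and lyase of adrenal and gonad, had 6 counts in sham and 104 in IRI, at 0.31, 0.30, 0.33, 0.64 and 0.71 FPKM in IRI and at most 0.05 in sham. Its log2 fold change was 3.71 ± 0.61 (edgeR, no filter, adjusted p = 1e-05). Other P450 genes of steroid synthesis held almost no counts: Cyp11a1 had 3 in sham and 1 in IRI, Cyp11b1 had 0 and 2, Cyp11b2 had 0 and 3, and Cyp21a1 had 0 and 1.

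Cyp2t4 (23 counts in sham, 108 in IRI), Ugt1a2 (15 and 70), Ugt2b35 (3 and 28) and Ugt1a9 (1 and 32) were the other higher genes in that fit, and the Ugt1a pair is uncertain for the shared exons. For Ugt1a9 the ratio was 26.5 with a 95% exact interval from 4.43 to 1080. Without IRI 3 it was 8.45 (1.13 to 375), so most of its counts came from 1 library. A pair of leukotriene hydroxylases fell from low levels, Cyp4f14 from 101 to 9 counts and Cyp4f15 from 106 to 3. For Cyp4f15 sham was 42.6-fold higher (95% exact interval 14.2 to 209.9). All 3 IRI counts came from IRI 2. Without it, sham was 35.6-fold higher with the IRI group set to 3 counts, an assumed floor and not a lower limit. The 95% exact interval on the counts as they are then starts at 28.4. Cyp2b9, Cyp2c69, Ugt2a3 and Ugt1a6b were the remaining lower genes.

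Promoter windows in RefSeq (GRCm38.p6) matched 110 of the 138 genes, with 123 windows. AGGTCA on either strand occurred within 250 bases upstream of the start in 14.02% of all 32851 windows, in 23.6% of the windows of these families, in 26.9% of the 26 windows of genes called lower (7 windows) and in 10.0% of the 10 windows of genes called higher (1 window). It was in none of the 3 windows of genes not called. Of 74 matched genes below the filter, 20 held it. A match of 6 letters is a description, not a binding site, and windows of related genes share sequence.

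The partners of these reactions were taken as lists by known role. Their counts can be read against 32.4% lower and 34.5% higher over all genes tested. For electron transfer to P450s, 6 of 10 tested genes were lower, 1 was higher and 3 were not called. Cytochrome b5 (Cyb5a) changed by -2.01, ferredoxin reductase (Fdxr), which feeds mitochondrial P450s, by -1.35, Cyb5b by -1.07 and P450 oxidoreductase (Por) by -0.80. Por stood at 69.6 ± 4.74 FPKM for sham and 47.1 ± 13.2 for IRI (SD, n = 5). Of 12 genes of haem synthesis and breakdown, 8 were lower and 2 higher. Uros, a step of porphyrin synthesis, changed by -3.12, Cpox by -1.43 and Alad by -1.10, whereas haem oxygenase (Hmox1) rose by 2.50 on the log2 scale. Alas1, the rate-limiting step of synthesis, was not called (-0.09). Genes of UDP-glucuronic acid supply, listed with genes of its further use and of nucleotide transport, gave 4 lower and 2 higher of 8. UDP-glucose dehydrogenase (Ugdh) was not called (0.27). With library totals 4 of these 8 were higher. The list on synthesis, transport and turnover of the sulfate donor PAPS gave 6 lower and 1 higher of 7. Papss2, a synthase of the donor, changed by -2.24, and the sulfate transporters Slc26a1 and Slc13a1 by -2.26 and -2.24. With library totals, the electron transfer, haem and PAPS lists gave 5, 6 and 5 genes lower and 1, 2 and 1 higher.

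Enzymes that act beside or after the 3 superfamilies were listed too, with the same background of 32.4% lower and 34.5% higher. Other oxidising and hydrolysing enzymes gave 13 lower and 5 higher of 19. Flavin monooxygenase 5 (Fmo5) changed by -4.11, carboxylesterase Ces1f by -3.13 and Fmo1 by -2.70, while carbonyl reductase Cbr3 changed by 3.12. The list of deconjugating enzymes gave 4 lower and 1 higher of 6, with Arsg at -2.75 and Arsb at -1.79. These are lysosomal sulfatases known for breaking down sulfated sugar chains; beta-glucuronidase (Gusb), which also cleaves glucuronides, changed by -0.82. Transporters that export conjugates or drugs gave 5 lower and 3 higher of 9, with Abcc6 at -3.38, the toxin exporter Slc47a1 at -2.37, Abcc3 at 1.97 and Abcb1a at 1.34. Abcb1a passed the filter through IRI libraries alone and Abcc6 through sham libraries alone. With library totals 4 were lower and 4 higher. Other enzymes of eicosanoid synthesis went mainly the other way, with 5 higher and 1 lower of 9: cyclooxygenase 2 (Ptgs2) changed by 4.17 and the prostaglandin-degrading Hpgd by -1.21. Ptgs2 passed the filter through IRI libraries alone.

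Regulators known to act on these families gave 12 lower and 4 higher of 20 tested, beside 32.4% and 34.5% over all genes. With library totals it was 11 and 4. HNF4 alpha (Hnf4a) stood at 136 ± 16.8 FPKM for sham and 34.8 ± 23.2 for IRI (SD, n = 5), with a log2 fold change of -2.19 ± 0.42 (edgeR adjusted p = 0.00094). The oxysterol receptor Nr1h3 changed by -1.93. Ppara, which encodes PPAR alpha, was not called (-0.63), and its FPKM ranged from 2.42 to 8.48 in sham and from 2.56 to 7.56 in IRI. The part of regulators in the values above was not tested.

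Marker genes of the proximal tubule were called lower in IRI. Marker counts can be read against 32.4% lower and 34.5% higher over all genes tested. Of the proximal tubule markers, all 15 for segments S1 and S2 and all 10 for segment S3 were called lower. With library totals it was 14 and 8. Their summed FPKM ranged from 2766 to 3785 in sham and from 313 to 1489 in IRI for S1 and S2, and from 2656 to 3693 and from 206 to 552 for S3. IRI 1 had the highest and IRI 4 the lowest sum for S1 and S2, as for the P450 sum (1423 and 427 FPKM). For S3 the highest sum was that of IRI 3 (552, against 521 in IRI 1) and the lowest that of IRI 4. Over the 33 lowered genes, IRI 4 was the lowest of the injured libraries in 17 and IRI 5 in 9, while IRI 1 was the highest in 14 and IRI 3 in 12. All 6 tubular injury markers were higher, as were all 5 tested neutrophil markers of 8, whose summed FPKM ranged from 1.08 to 3.32 in sham and from 23.7 to 109 in IRI. Of these, 3 injury markers (Havcr1, Krt20 and Sox9) and 4 neutrophil markers (S100a8, Retnlg, Csf3r and Clec4d) passed the filter through IRI libraries alone, so their being called higher follows in part from the filter. Podocyte markers gave 4 higher and none lower of 6. The part of changed cell makeup in the values above was not tested.

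Adrenal cortex and liver markers were also measured, with the same background of 32.4% lower and 34.5% higher over all genes tested. Of 8 adrenal cortex markers 3 of 4 tested were higher (Star, Akr1b7 and Scarb1), and the summed FPKM of the list ranged from 5.34 to 7.91 in sham and from 15.7 to 27.1 in IRI. The defining gene Nr5a1 was at 0 in every library, and Mc2r, the receptor for the adrenal-stimulating hormone, was at most 0.21 FPKM in sham and 0.79 in IRI, beside the rise of Cyp17a1. Of the other untested genes of the list, Mrap ranged from 0 to 0.13 FPKM in sham and from 0.19 to 0.51 in IRI, and Hsd3b1 from 0 to 0.12 and from 0.03 to 1.35. Their part in the Cyp17a1 value was not tested. Of 8 hepatocyte markers, 3 of 4 tested were lower and albumin (Alb) was higher; the list sum ranged from 85.2 to 140.6 in sham and from 16.6 to 58.5 in IRI, most of it Ttr. Defining liver genes Cps1 and Tat were at most 0.04 and 0.07 FPKM in any library.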

How the data were processed

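Poly(A) RNA of mouse kidney was sequenced as paired reads of 150 bases from 1 µg of total RNA, per the labels' protocols. The submitters' processing notes name cutadapt 1.9.1, HISAT2 2.0.1, HTSeq 0.6.1 and GRCm39; their roles and the strand setting are not given in the sources used here. Without the strand setting, a gene and its antisense partner cannot be told apart. The authors deposited, for every gene and library, a whole-number count and an FPKM value. Each FPKM was recomputed from its count, the exonic length and the total of its library, and 100.0% matched (within 0.005 units or 0.1%).

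Counts were tested in edgeR 4.0.16 (R 4.3.3) with TMM factors, a robust quasi-likelihood fit on group alone over all 10 libraries, and Benjamini-Hochberg adjustment over all genes with at least 1 FPKM in at least 5 libraries. Standard errors were computed as the log2 fold change over the root of F. Alternatives were library totals, DESeq2 size factors, DESeq2 1.42.0, limma 3.58.1 on log2(FPKM + 1) and with 0.1, no filter, a filter on a mean of 0.5 FPKM, stricter calls, a replicate block and leaving out each library. The script was tested on simulated data. Pairs of libraries in each group differed by more than counting noise, so none was taken for a repeat deposit of another; this does not show that they are separate mice. No batch is stated in the labels.

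The genes and lists were chosen with earlier results of these data known. FPKM of each library is given for the 4 genes of highest mean in each of 5 classes, for up to 12 genes called higher and for the 8 lower genes whose fold change was largest among those averaging 5 FPKM or more in a group; Cyp4a12b, Cyp17a1 and the other genes given by library outside this rule were chosen after their values were seen. Of each list, at most 4 called and 2 uncalled genes are named; some results are not reported here. Thick ascending limb, principal cell, podocyte, endothelial, fibroblast and macrophage markers were also listed. They gave 2, 1, 4, 3, 3 and 3 genes higher and 4, 1, 0, 0, 1 and 1 lower of 6, 5, 6, 6, 6 and 5 tested. Over all genes tested 34.5% were higher and 32.4% lower. Shared 150-base stretches were counted in GENCODE transcripts of an earlier build.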

Additional observations from a re-analysis of the deposited data

Results flagged for a closer look

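In 4 of 66 groups of 5 libraries examined for the genes given by library, the highest library lay farther from the others than Dixon's 95% critical value (0.71 of the group's range); chance alone gives about 1 in 20. Cyp7b1 in IRI 2 was at 5.76 FPKM, with the next IRI library at 2.89, and all IRI libraries stayed below the lowest sham library. Sult1e1 in Sham 3 was at 0.05 FPKM, from the single count of the sham group, with the other sham libraries at 0. Ugt2b5 in IRI 3 was at 1.09 FPKM, with the next IRI library at 0.40. Cyp4a12b in IRI 3 was at 9.31 FPKM, with the next IRI library at 3.13.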

How the results depend on the processing

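Over the 50 tested genes, fits were compared at the same call threshold, leaving out those with the filter applied again. Of 950 values, 923 kept the call, 18 lost it and 9 gained it. No gene called in the main or the other fit turned direction. Direction was not checked where neither fit gave a call. Cyp26b1, for example, went from -0.24 to 0.03 with library totals. Genes called higher and lower ranged from 9 to 10 and from 32 to 34 when 1 library was left out, and over all genes from 4343 to 4668 and from 4043 to 4404. These fits kept the genes tested on all 10 libraries, a choice made after seeing that a filter applied again drops genes expressed in 1 group only; with that filter, 6 to 10 and 29 to 33 of the members and 4163 to 4530 and 3911 to 4251 of all genes were called. Requiring a change of at least 2-fold left 1587 genes higher and 1995 lower over all genes, and 7 and 26 of the members. At an adjusted p under 0.01, 8 and 31 members were called, beside 3688 and 3672 of all genes. With no filter 15 and 38 of 101 members were called, beside 5876 and 5459 of 30454 genes. The SULT median, -0.09, ranged from -0.1635 to 0.0463 when 1 library was left out (positive without IRI replicate 5) and turned to 0.16 with library totals, 0.11 with limma at either pseudocount (0.1125 and 0.1136) and 0.38 with no filter; the cause was not tested. A replicate block gave 8 members higher and 34 lower, and 4215 and 4104 genes. Cyp4a14 (adjusted p = 0.055) and Sult1a1 (0.084) lost their calls and Cyp4a12b gained one (0.0495). Same-numbered libraries did not deviate together (correlations 0.05, -0.12, -0.23, 0.01 and -0.12, none best with its own number). These correlations gave no sign of pairing but cannot exclude it, since paired libraries need not deviate together. Genes with few counts, such as Sult1e1 in sham and Ugt1a9, have folds with wide counting intervals.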
